A study of Mus musculus with 9 samples.

Results

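The genes described here carry glucose into the cell, break it down to pyruvate, exchange pyruvate for lactate, or belong to the oxygen-sensing pathway built on hypoxia-inducible factor (HIF). They were chosen by name, as 34 gene symbols, and the symbols were matched through Ensembl identifiers to 35 of the 52550 rows of a table of exon counts. Aldoa took 2 rows, one of which held no count in any library. The samples were mouse embryonic stem cells of the hybrid line V6.5, profiled in 9 libraries of 3' end sequencing. Of these, 4 came from wildtype cells (WT) and 5 from cells labelled as double knockouts of KLF2 and KLF4 (DKO), transcription factors of the naive pluripotency network. All 9 were grown with 15% serum, LIF and 2 inhibitors, one of GSK and one of MEK. The labels do not give how the knockout was made, whether it is 1 clone, or whether replicates were separate cultures, so the p-values measure only the spread between these libraries, which may be technical.

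Glycolysis turns glucose into pyruvate through a chain of enzymes, several of which exist as isoenzymes encoded by different genes. Pyruvate either enters the mitochondrion through pyruvate dehydrogenase or is reduced to lactate by lactate dehydrogenase, whose A subunit favours lactate formation and whose B subunit is more abundant in tissues that use lactate. When oxygen is scarce, the prolyl hydroxylases encoded by Egln1, Egln2 and Egln3 no longer mark HIF-1 alpha for destruction, and HIF then switches on many glycolytic genes together with Egln1 and Egln3 themselves. Naive embryonic stem cells use both glycolysis and respiration.

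Library totals lay between 6035642 and 7098530 counts, and 3 counts in 1 library correspond to 0.425 to 0.505 CPM (counts scaled by TMM-adjusted library size). The transcripts of the named targets went against the label. Klf2 stood at 459.6 ± 9.87 CPM in WT and 615 ± 19.0 CPM in DKO, and Klf4 at 848 ± 49.1 and 1595 ± 140.0 CPM. The log2 fold change of DKO over WT was 0.42 for Klf2 and 0.91 for Klf4. Tested genes within 5 Mb had a median of 0.35 around Klf2, close to that of Klf2 itself, and of 0.10 around Klf4. The sources used here do not give the deleted parts, and reads from a 3' end outside them check nothing, so the second group is called the libraries labelled DKO. The mitochondrial share of counts was 1.42% ± 0.102 in WT and 2.04% ± 0.290 in DKO, highest in DKO 4 and DKO 5 at 2.30% and 2.41%. On the second principal component, with 5.87% of the variance, DKO 3 stood at 19.1 and DKO 4 and DKO 5 at -10.8 and -12.0, with the other 6 libraries between. Of 10 embryonic stem cell markers, all tested, 7 were higher and 2 lower in the libraries labelled DKO, where 47.8% of all tested genes differed. The 2 lower ones were Tdgf1, from 297 to 168 CPM, and Zfp42, from 333 to 290 CPM. The summed level of all 10 was 3010 to 3118 CPM in WT and 4044 to 4306 CPM in DKO. The summed level of 12 fibroblast markers was 13.7 to 16.5 CPM in WT and 7.06 to 10.3 CPM in DKO, with Lum at 0 in every library. Only 2 of the 12 were high enough to test, and Col5a1, the one that passed, went from 9.77 to 3.64 CPM. The sum of 7 primitive endoderm markers was 4.70 to 7.93 and 4.60 to 6.13 CPM, and its 2 tested genes moved in opposite directions, Sox7 from 0.148 to 2.99 CPM and Dab2 from 3.62 to 0.447 CPM. What part these differences have in the results below was not tested. In bulk RNA, fewer cells of a type and less RNA per cell cannot be told apart.

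The promoter sequences of the 4 genes with the largest differences in the lactate and oxygen-sensing groups are shown first, because Ldha and Slc16a3 went down and Ldhb and Egln3 went up. They come from RefSeq on GRCm38.p6 and run 5' to 3' on the gene's strand, ending just before the RefSeq start of transcription, or 14 bases before it for Slc16a3. Capitals mark the HIF core motif, ACGTG or GCGTG, on either strand. The Ldha stretch lies at chr7:46845554-46845803 (plus strand), the Slc16a3 stretch at chr11:120948817-120949052 (plus), the Ldhb stretch at chr6:142507958-142508207 (minus) and the Egln3 stretch at chr12:54203875-54204124 (minus). In GENCODE the first 2 are intronic for transcripts of the same gene that start further upstream, and the other 2 lie before the gene.
Ldha: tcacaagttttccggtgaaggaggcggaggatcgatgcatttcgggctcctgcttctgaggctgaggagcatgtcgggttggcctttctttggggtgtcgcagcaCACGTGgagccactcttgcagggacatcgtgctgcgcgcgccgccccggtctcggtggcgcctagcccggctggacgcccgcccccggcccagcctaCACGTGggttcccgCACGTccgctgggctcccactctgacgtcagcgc
Slc16a3: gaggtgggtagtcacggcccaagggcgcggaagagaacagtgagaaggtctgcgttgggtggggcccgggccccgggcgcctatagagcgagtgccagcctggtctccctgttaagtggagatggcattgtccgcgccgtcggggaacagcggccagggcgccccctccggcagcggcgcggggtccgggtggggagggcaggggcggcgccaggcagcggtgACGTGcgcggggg
Ldhb: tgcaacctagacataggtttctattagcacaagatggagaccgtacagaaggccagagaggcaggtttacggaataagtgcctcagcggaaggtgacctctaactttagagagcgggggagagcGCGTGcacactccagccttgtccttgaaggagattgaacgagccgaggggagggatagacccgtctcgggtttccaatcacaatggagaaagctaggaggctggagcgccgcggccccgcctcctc
Egln3: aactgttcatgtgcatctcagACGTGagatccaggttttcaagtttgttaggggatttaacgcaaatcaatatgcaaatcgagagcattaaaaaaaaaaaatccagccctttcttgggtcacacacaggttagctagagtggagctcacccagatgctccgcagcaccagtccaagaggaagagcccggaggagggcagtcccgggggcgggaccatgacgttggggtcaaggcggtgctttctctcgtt
The Ldha stretch held 5 matches at 3 places, since the palindrome CACGTG, an E-box, counts on both strands and occurs at 2 of them. The other 3 stretches held 1 match each, ACGTG in Slc16a3 and Egln3 and GCGTG in Ldhb.

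Promoter windows of 300 bases, 250 before and 50 after a start, were listed for 33 of the 34 symbols, all but Slc2a3, and gave 48 windows because some genes have several starts. The HIF core motif was present in 38 of the 48 windows (79.2%), against 43.8% of all 32851 windows. Its share was alike in windows of genes that went up (4 of 5), went down (18 of 23) or did not pass or were not tested (16 of 20). ACGTG alone was in 24 of the 48 windows, against 19.6% of all, GCGTG in 56.2% and 32.4%, and the E-box CACGTG, which contains ACGTG, in 14.6% and 7.15%. CACCC, a core motif of KLF factors, was in 66.7% of the members' windows and 57.5% of all. The windows compared were not matched for base composition or expression, and several windows of a gene were counted separately. A match is only a run of letters, and no binding was measured.

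Most of the glycolytic and lactate genes that differed were lower in the libraries labelled DKO. Of the 33 genes tested with edgeR's quasi-likelihood test, 16 fell, 5 rose and 12 did not pass a Benjamini-Hochberg adjusted p of 0.05. The changed share was 63.6%, where 47.8% of all 11893 tested genes passed. Falls made up 48.5% of the tested members and 24.0% of all genes, and rises 15.2% and 23.9%. The median log2 fold change of DKO over WT was -0.20 in these genes and 0.01 over all. In 17 of them the lowest library of one group lay above the highest of the other, 13 lower and 4 higher in DKO (51.5%, against 37.4% of all genes). A change of at least 2-fold was seen for Ldhb and Egln3 upward and for Ldha, Slc16a3 and Egln1 downward, with 10.2% of all genes past that size in either direction. On chromosome 6, 3 of 6 tested members rose and 1 fell, beside 33.1% up and 30.2% down among all tested genes there. Off chromosomes 6 and 8 the counts were 2 up and 14 down of 26, beside 22.7% and 22.4% of all genes off chromosomes 6, 8, Y and MT. Whether the members' balance differs between these locations was not tested. Without DKO 4 and DKO 5, the libraries highest in mitochondrial share, 5 members rose and 14 fell, beside 2449 and 2555 of all genes in that fit. Transcripts of the whole list made up 0.613% ± 0.00907 of counts in WT and 0.595% ± 0.0128 in DKO. Their summed level was 6161 ± 83.9 CPM in WT and 5954 ± 135 CPM in DKO, and the groups overlapped. With Slc2a3 set aside, the most abundant member and one that rose, the sum was 5261 ± 56.3 CPM in WT and 4243 ± 90.6 CPM in DKO. No gene that fell was set aside in that sum.

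**Figure D1:**
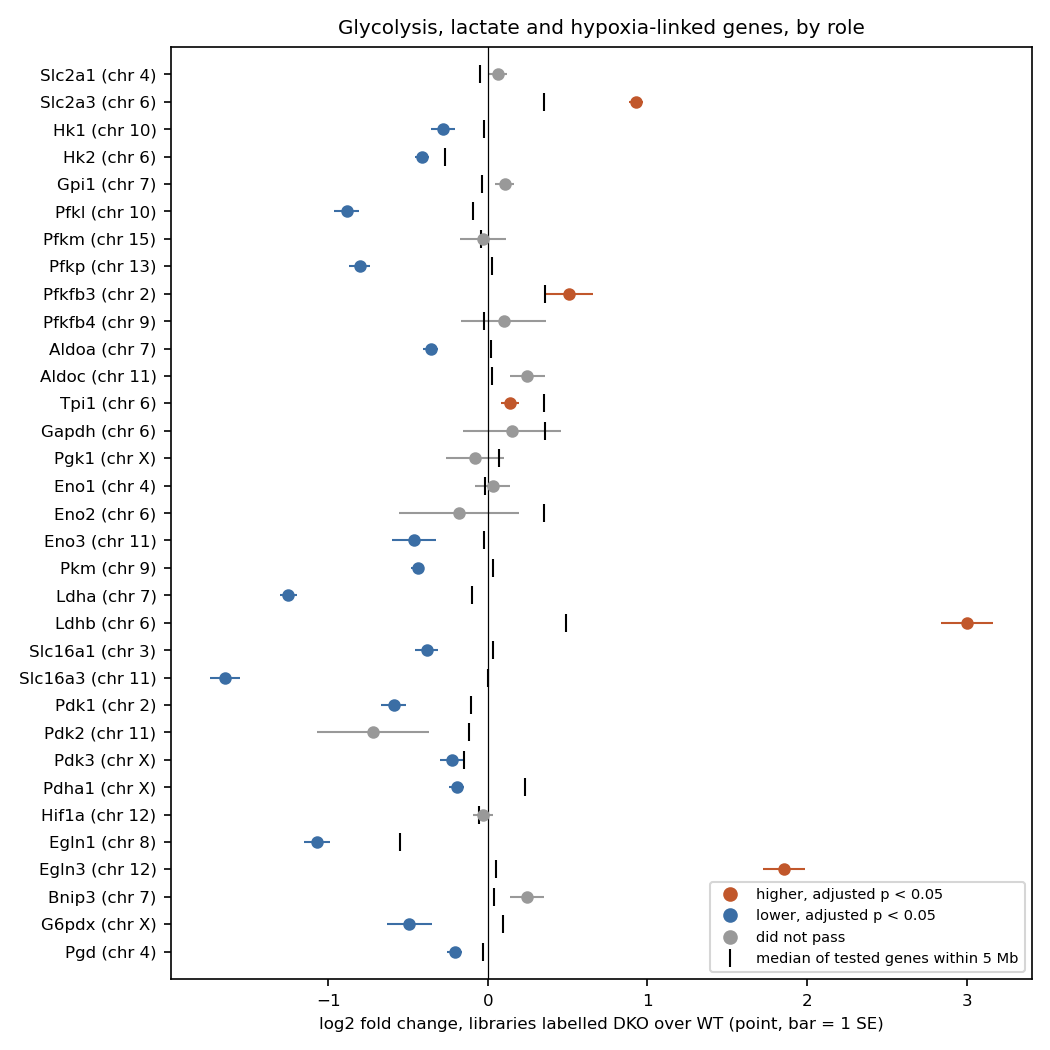
Log2 fold change of each of the 33 tested genes, libraries labelled DKO over WT, ordered by role from glucose uptake to the pentose phosphate pathway, with bars of 1 SE and the chromosome in brackets. Orange and blue points passed upward and downward, grey points did not pass, and black ticks mark the median log2 fold change of the tested genes within 5 Mb. Ldhb, at 3.0, stands farthest to the right, and Slc16a3, at -1.65, farthest to the left.

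Glucose uptake differed between its 2 transporters. Slc2a3 encodes GLUT3, the high-affinity transporter of neurons and early embryos (ENSMUSG00000003153, GRCm38 chr6:122727809-122801640). It read 882, 908, 874 and 936 CPM in the WT libraries and 1751, 1688, 1624, 1662 and 1831 CPM in DKO 1 to 5. The groups lay far apart, with little spread inside either. The log2 fold change was 0.93 ± 0.04 (SE; 1.90-fold, edgeR adjusted p = 1.3e-18), and the median over 85 tested genes within 5 Mb of it was 0.35. Slc2a1, which encodes the widespread transporter GLUT1 on chromosome 4, read 189, 175, 179 and 193 CPM in WT and 171, 194, 204, 181 and 212 CPM in DKO. Its groups overlapped (log2 fold change 0.06 ± 0.06, adjusted p = 0.39 by edgeR). GLUT1 tags made up 17.0% ± 0.617 of the pair's counts in WT and 10.1% ± 0.843 in DKO.

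In upper glycolysis, 2 genes rose, 5 fell and 4 did not pass, a changed share of 63.6% beside 47.8% of all tested genes. The largest falls were in phosphofructokinase, the enzyme that commits glucose to glycolysis. Pfkl, the liver-type subunit (chr10:77986947-78010083), read 51.6, 58.2, 53.0 and 52.4 CPM in WT and 31.3, 28.2, 28.2, 29.0 and 28.9 CPM in DKO. Pfkp, the platelet-type subunit (chr13:6579768-6648777), read 100.2, 105, 99.8 and 114 CPM in WT and 57.7, 59.2, 57.1, 66.8 and 59.7 CPM in DKO. No library labelled DKO reached the WT range for either gene. The log2 fold changes were -0.88 ± 0.08 (adjusted p = 2.3e-11 by edgeR) for Pfkl and -0.80 ± 0.07 (adjusted p = 2.0e-12) for Pfkp, with neighbourhood medians of -0.09 and 0.03. Pfkm, the muscle-type subunit, read 9.27, 12.7, 11.5 and 11.6 CPM in WT and 11.2, 9.71, 10.01, 12.7 and 11.6 CPM in DKO, and its groups overlapped (log2 fold change -0.03 ± 0.14, adjusted p = 0.89 by edgeR).

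Pfkfb3 and Pfkfb4 encode enzymes that make and break down fructose 2,6-bisphosphate, the strongest activator of phosphofructokinase. Pfkfb3 read 9.12, 7.93, 9.84 and 7.53 CPM in WT and 13.9, 13.3, 11, 11.3 and 11.6 CPM in DKO. Every library labelled DKO lay above every WT library, at a log2 fold change of 0.51 ± 0.15 (adjusted p = 0.0049 by edgeR), and 20 neighbours within 5 Mb had a median of 0.36. Pfkfb4 was near the lower end of detection, with 2.99, 1.98, 3.67 and 3.41 CPM in WT and 4.19, 2.35, 2.63, 3.71 and 3.30 CPM in DKO. Its groups overlapped, and the test did not pass (log2 fold change 0.10 ± 0.27, adjusted p = 0.78 by edgeR).

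Among the other genes of this stretch, Hk2, the hexokinase that holds glucose in the cell as glucose 6-phosphate, fell from 632 ± 10.7 to 475 ± 21 CPM (log2 fold change -0.41 ± 0.04, adjusted p = 1.4e-09 by edgeR). It lies on chromosome 6, in a neighbourhood with a median of -0.27. Hk1, the more widely expressed hexokinase, fell from 71.5 ± 2.67 to 58.9 ± 7.83 CPM (adjusted p = 0.0031 by edgeR), with the highest library labelled DKO (69.3 CPM) above the lowest of WT (68.1 CPM). Aldoa, the main aldolase of muscle and many growing cells, fell from 864 ± 19.8 to 674 ± 47.0 CPM (adjusted p = 1.0e-07 by edgeR). Aldoc, the aldolase of brain, stood at 21.1 ± 2.33 and 25.0 ± 2.82 CPM, short of the threshold (adjusted p = 0.058 by edgeR). Gpi1, which converts glucose 6-phosphate to fructose 6-phosphate, stood at 222 ± 12.8 and 239 ± 22.6 CPM and did not pass. Tpi1, triosephosphate isomerase, passed narrowly, with 200.1 ± 10.9 CPM in WT and 221 ± 16.6 CPM in DKO (log2 fold change 0.14 ± 0.06, adjusted p = 0.036 by edgeR), below the median of 0.35 among its neighbours on chromosome 6. Its call was lost in 9 of 17 alternative fits (adjusted p up to 0.30), those without WT 1, WT 2, WT 3, DKO 2, DKO 4 or DKO 5 among them.

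**Figure D2:**
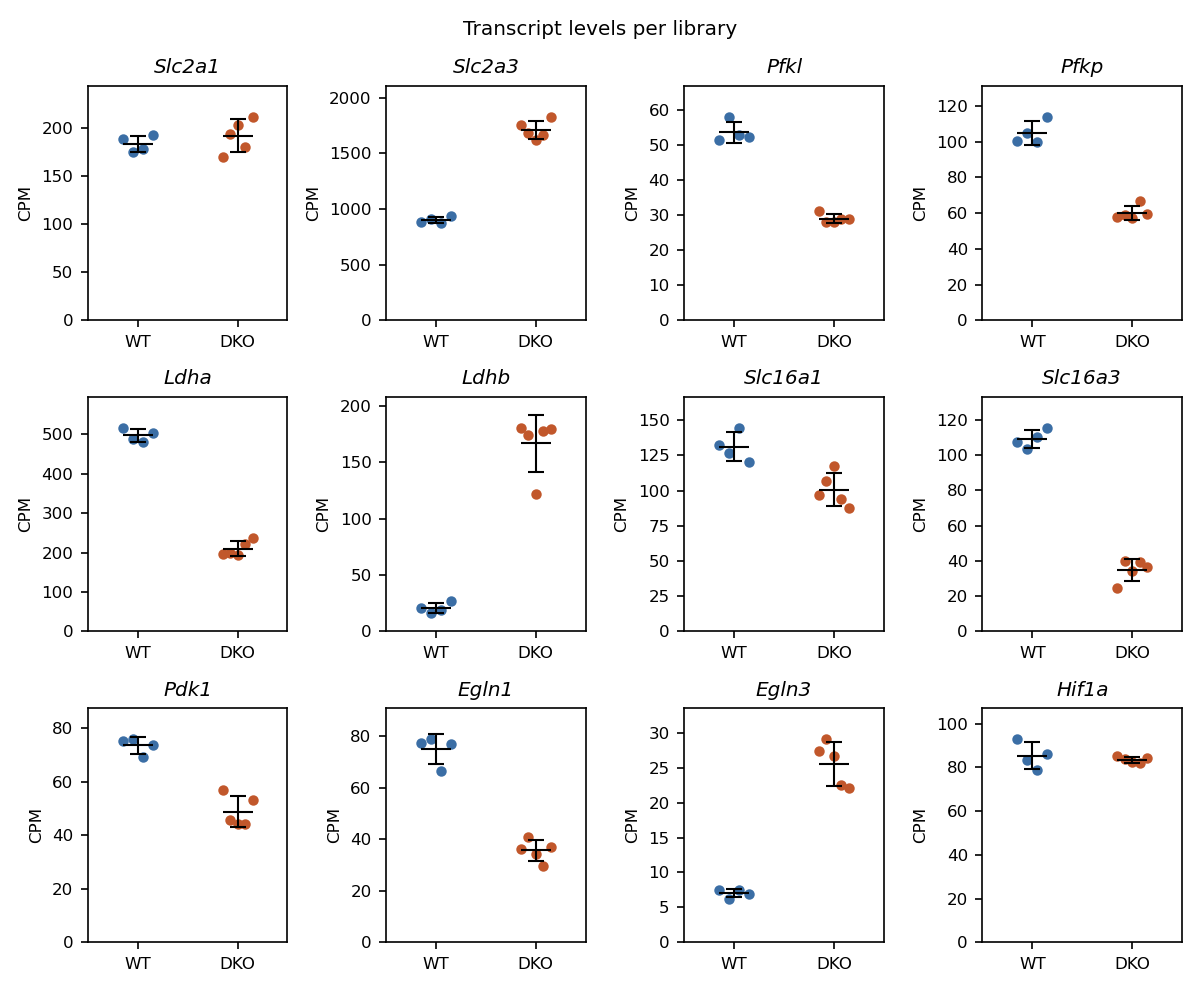
CPM in each library for 12 of the genes, 1 panel a gene, each with its own axis from 0. Blue points are the 4 WT libraries and orange points the 5 libraries labelled DKO, with black bars for the mean and SD. Slc2a1 and Hif1a overlap between groups, the other 10 do not, and DKO 3 is the low orange point in the Ldhb panel at 122 CPM.

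In lower glycolysis, where most of the energy yield of the pathway is made, 2 genes fell and 4 did not pass. The changed share was 33.3%, beside 47.8% of all tested genes. Gapdh, Pgk1 and Eno2, among the 4 that did not pass, were counted at a few CPM only. Small differences in them could have been missed, so this share does not show that lower glycolysis changed less. Pgam1, a phosphoglycerate mutase, was too low to test. Pkm, the pyruvate kinase that makes pyruvate, fell from 892 ± 9.25 to 658 ± 10.6 CPM, a tight difference (log2 fold change -0.44 ± 0.04, adjusted p = 5.4e-11 by edgeR). Eno3, the muscle-type enolase, fell from 21.3 ± 4.03 to 15.5 ± 3.16 CPM (adjusted p = 0.0061 by edgeR), with overlapping groups, and its call was lost without DKO 4 and DKO 5 together (adjusted p = 0.0511). Eno1, the enolase of most tissues, stood at 72.0 ± 10.8 and 73.4 ± 10.5 CPM, and the neuronal Eno2 at 1.66 ± 0.779 and 1.48 ± 0.574 CPM.

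Gapdh and Pgk1, which are abundant enzymes in most cells, were counted at a few CPM only. Gapdh read 2.69, 2.13, 3.67 and 3.69 CPM in WT and 2.54, 3.60, 2.13, 2.03 and 6.6 CPM in DKO, and Pgk1 stood at 6.59 ± 0.602 and 6.23 ± 1.11 CPM. Pgam1 stood at 1.10 and 1.22 CPM on average. The Gapdh values are uncertain, because near-identical copies of its 3' end are annotated elsewhere in the genome and the sources used here do not give how reads with several possible origins were counted. In GENCODE, the last 300 bases of Gapdh matched 121 other loci, 117 of them pseudogenes, at up to 100% identity. Those loci together held 1925 counts over the 9 libraries, against 190 at Gapdh itself. The 3' ends of Tpi1 (2 loci at up to 98.6%), Bnip3 (4 at up to 99.0%) and Eno1 (1 at 99.7%) also had copies. Those of Tpi1 and Bnip3 held 0 counts and that of Eno1 held 44, against 4266 at Eno1 itself. The same limit holds for these genes and for Ldha and Ldhb below. Pgk1 had 4 other loci and Pgam1 had 1 matching somewhere along the transcript, also at up to 100%, but 0 matching the last 300 bases, and these loci held 0 counts. With the 10 genes that have any such copy set aside, 3 of 24 tested genes rose and 14 fell (70.8%, beside 47.8% of all tested genes).

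All 4 lactate genes passed, where 47.8% of all 11893 tested genes did. Among them Ldhb had the largest log2 fold change of the 33 genes tested. Ldha, which encodes the A subunit of lactate dehydrogenase (ENSMUSG00000063229, chr7:46841475-46855627), read 517, 488, 481 and 505 CPM in WT and 196, 198, 194, 222 and 236 CPM in DKO. The gap between the groups was far wider than the spread inside either. The log2 fold change was -1.25 ± 0.05 (2.38-fold lower, edgeR adjusted p = 8.7e-20), and 100 neighbouring genes had a median of -0.10.

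Ldhb, which encodes the B subunit (ENSMUSG00000030246, chr6:142490249-142507957), moved the other way. It read 20.8, 16.6, 19.0 and 26.8 CPM in WT and 181, 174, 122, 178 and 179.8 CPM in DKO. DKO 3 was the lowest of its group and still far above WT. The log2 fold change was 3.0 ± 0.16 (8.0-fold, edgeR adjusted p = 1.0e-07), which placed Ldhb 31st from the highest of all tested genes. A rise of at least 8-fold was shared by 32 genes, or 0.269% of those tested. The median of 31 neighbours within 5 Mb on distal chromosome 6 was 0.49. The annotated copies of these transcripts carried few reads. A locus matching the last 300 bases of Ldha held 5 counts in all, and one matching Ldhb held 14 against 5832 at Ldhb itself.

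The A subunit made up 96.1%, 96.7%, 96.2% and 94.95% of the pair's counts in the WT libraries. In DKO 1 to 5 it made up 52.0%, 53.2%, 61.4%, 55.6% and 56.8%. Ldha tags were almost the whole of the pair in WT and still outnumbered Ldhb tags in every library labelled DKO, most so in DKO 3. The difference of the means was -40.2 percentage points (exact 2-sided permutation p = 0.00794, the smallest that 126 splits of 9 libraries allow, adjusted over 10 shares 0.0198).

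The proton-coupled lactate carriers fell together. Slc16a3 encodes MCT4, a carrier typical of cells that export much lactate (ENSMUSG00000025161, chr11:120948480-120960868). It read 108, 103, 110.0 and 116 CPM in WT and 24.4, 39.8, 34.5, 39.3 and 36.7 CPM in DKO, with DKO 1 the lowest. The log2 fold change was -1.65 ± 0.09 (3.13-fold lower, edgeR adjusted p = 1.1e-13), in a neighbourhood with a median of 0.00. Slc16a1, which encodes the widespread carrier MCT1, read 132, 127, 145 and 121 CPM in WT and 96.9, 107, 117, 94.0 and 87.6 CPM in DKO. The gap between its groups was narrow, and the fall smaller (log2 fold change -0.38 ± 0.07, adjusted p = 3.8e-05 by edgeR). The MCT1 share of the pair rose from 54.5% ± 2.45 to 74.2% ± 4.23, a difference of 19.7 points (exact permutation p = 0.00794, adjusted over 10 shares 0.0198).

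**Figure D3:**
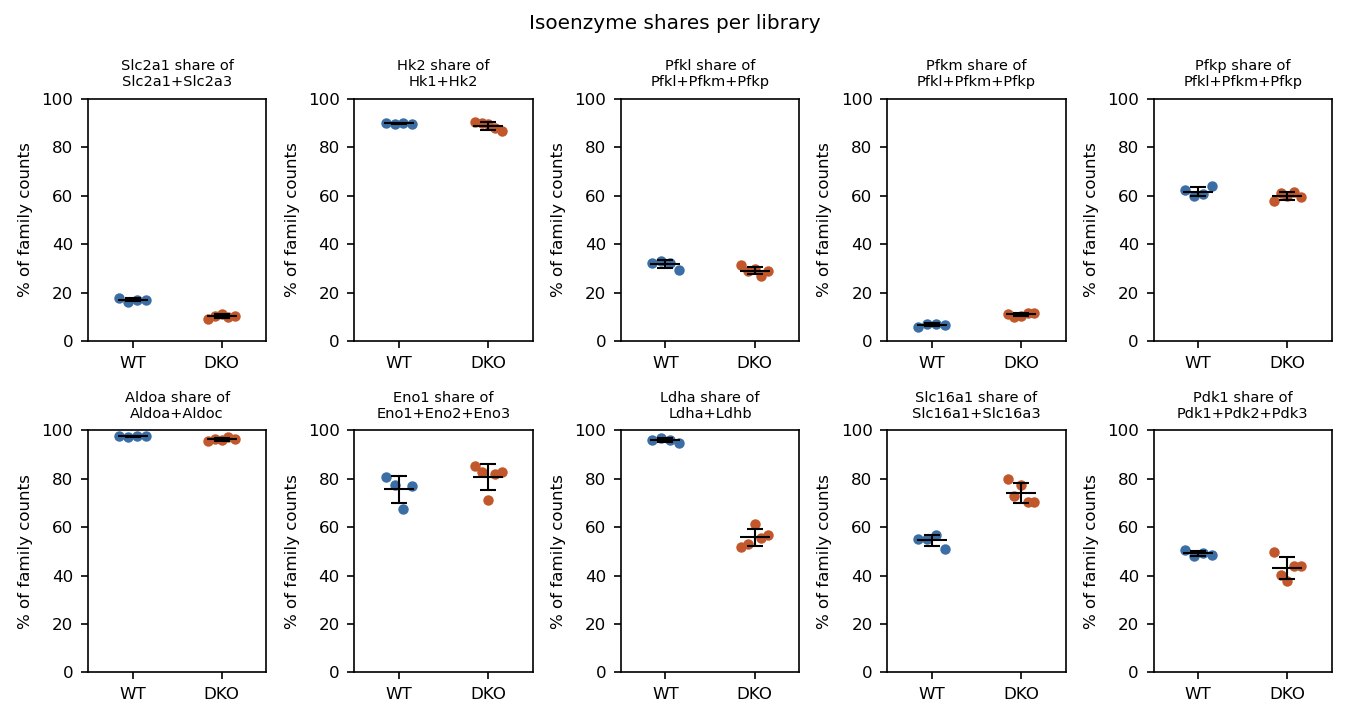
Share of each gene in the counts of its isoenzyme or carrier family, in percent, for 4 WT libraries (blue) and 5 libraries labelled DKO (orange), with black bars for the mean and SD. The Ldha panel shows the widest separation, 96.0% against 55.8%, whereas the Hk2 and Pfkp shares differ by less than 2 points.

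Because each transcript gives about 1 tag in this protocol, counts within a family were compared as shares of a library, which need no scaling between libraries. Of 10 shares, 5 passed the exact test after adjustment. Besides Ldha and Slc16a1, the Slc2a1 share dropped by 6.87 points and the Pfkm share rose by 4.37 points, from 6.62% ± 0.634 to 11% ± 0.722 (adjusted p = 0.0198 each, exact permutation). In that family Pfkl and Pfkp fell, while the level of Pfkm itself did not pass. The Aldoa share moved by -1.22 points, from 97.6% ± 0.213 to 96.4% ± 0.580 (adjusted p = 0.0317, exact permutation). With 1 library left out, its difference stayed between -1.44 and -1.05 points, though its adjusted p passed only without DKO 1 or DKO 3. The other 4 shares had an adjusted p of 0.0571 by the exact test without DKO 2, DKO 4 or DKO 5, and passed without any other single library. These adjusted p-values are set by the number of splits and by how many of the 10 shares reach the smallest p. They therefore say little of dependence on a library. The Ldha difference stayed between -41.6 and -39.3 points with 1 library left out. The Hk2 share, at 89.8% and 89.0%, and the Eno1 share, at 75.6% and 80.9%, did not pass.

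Pyruvate enters the mitochondrion through the pyruvate dehydrogenase complex, which the kinases Pdk1 to Pdk3 switch off. Pdk1, a well known HIF target (chr2:71873224-71903858), read 75.2, 76.1, 69.2 and 73.7 CPM in WT and 56.8, 45.6, 44.2, 44.4 and 53.1 CPM in DKO. All 5 libraries labelled DKO lay below WT, at a log2 fold change of -0.59 ± 0.08 (adjusted p = 6.7e-08 by edgeR). Pdk3 read 71.8, 79.9, 68.3 and 74.8 CPM in WT and 56.4, 66.0, 72.9, 54.5 and 65.8 CPM in DKO. Its groups overlapped, and its fall (log2 fold change -0.22 ± 0.08, adjusted p = 0.015 by edgeR) did not pass in 3 alternative fits, those without WT 2, without DKO 4, and without DKO 4 and DKO 5 (adjusted p = 0.0696, 0.0622 and 0.0845). Pdk2 was low, with 1.5, 1.83, 2.64 and 2.84 CPM in WT and 1.20, 1.72, 0.492, 1.86 and 1.41 CPM in DKO, and did not pass (adjusted p = 0.091 by edgeR). Pdha1, the catalytic subunit that these kinases phosphorylate, fell from 282 ± 4.86 to 246 ± 12.9 CPM (log2 fold change -0.20 ± 0.05, adjusted p = 0.0012 by edgeR), in a neighbourhood on the X chromosome with a median of 0.23.

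Of 4 oxygen-sensing genes, 1 rose, 1 fell and 2 did not pass, a changed share of 50%, close to the 47.8% of all tested genes. Hif1a, which encodes HIF-1 alpha, a factor controlled mainly at the protein level, read 93.2, 83.3, 78.9 and 86.3 CPM in WT and 85.4, 83.8, 82.4, 81.8 and 84.2 CPM in DKO. The DKO values all lay inside the WT range (log2 fold change -0.03 ± 0.06, adjusted p = 0.70 by edgeR). Egln3, a prolyl hydroxylase that HIF induces (ENSMUSG00000035105, chr12:54178981-54203860), read 7.48, 6.25, 7.49 and 6.96 CPM in WT and 27.4, 29.1, 26.6, 22.4 and 22.1 CPM in DKO. Each library labelled DKO held several times the WT level, at a log2 fold change of 1.86 ± 0.13 (3.62-fold, edgeR adjusted p = 7.6e-14), and the neighbourhood median was 0.05. Egln1, the main oxygen sensor among the prolyl hydroxylases (chr8:124908587-124949324), read 77.3, 79.0, 66.4 and 76.8 CPM in WT and 36.3, 40.7, 34.3, 29.7 and 37.1 CPM in DKO. Its groups were clearly apart, at a log2 fold change of -1.07 ± 0.08 (2.10-fold lower, adjusted p = 3.1e-13 by edgeR). The 79 neighbours of Egln1 on distal chromosome 8 had a median of -0.55. Bnip3, a mitophagy receptor induced by HIF, stood at 24.6 ± 3.11 and 29.2 ± 3.57 CPM (adjusted p = 0.053 by edgeR).

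The oxidative branch of the pentose phosphate pathway draws glucose 6-phosphate off glycolysis to make NADPH. Both of its enzymes among the members fell, where 24.0% of all tested genes did. G6pdx, its first enzyme, went from 13.6 ± 1.56 to 9.66 ± 0.739 CPM (log2 fold change -0.49 ± 0.14, adjusted p = 0.0039 by edgeR), and Pgd, 6-phosphogluconate dehydrogenase, from 493 ± 21.4 to 427 ± 20.3 CPM (log2 fold change -0.21 ± 0.05, adjusted p = 0.00039 by edgeR). Neither overlapped between groups, as was so for 37.4% of all tested genes, but the gaps were narrow. The lowest WT and the highest DKO library stood at 11.5 and 10.7 CPM for G6pdx, and at 467 and 459 CPM for Pgd. Pgls, another enzyme of that branch, is on a further list and is named after its values were seen. It rose from 172 ± 15.5 to 230 ± 24.1 CPM (log2 fold change 0.42 ± 0.07, adjusted p = 3.1e-05 by edgeR). The median of its neighbours on chromosome 8 was 0.35.

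Other genes that HIF is known to induce were looked at as a list of 32 genes outside the members. Of 27 tested, 15 fell, 3 rose and 9 did not pass, a changed share of 66.7% where 47.8% of all genes passed (24.0% down, 23.9% up). The list's median log2 fold change was -0.37, against 0.01 over all genes. Off chromosomes 6 and 8 the counts were 12 down and 3 up of 23, a changed share of 65.2%, where 45.1% of all genes off chromosomes 6, 8, Y and MT passed (22.4% down). The summed level of the list ran from 1597 to 1724 CPM in the WT libraries and from 1154 to 1186 CPM in those labelled DKO. The means of this sum were 1683 and 1163 CPM, and most of that difference came from Ak4 alone. Ak4, a mitochondrial adenylate kinase (chr4:101419277-101466995), fell most, from 432 ± 30.0 to 36.6 ± 5.24 CPM (log2 fold change -3.56 ± 0.07, 11.8-fold lower, adjusted p = 1.9e-24 by edgeR). Bhlhe40, a transcriptional repressor of the circadian clock, fell by 1.30 on the log2 scale, and the heme oxygenase gene Hmox1 by 1.19, both against neighbourhood medians of 0.24. Pgm1, a phosphoglucomutase that links glycogen to glycolysis, rose from 14.4 ± 1.66 to 29.5 ± 2.39 CPM (adjusted p = 9.3e-10 by edgeR). The other 2 that rose, Ddit4 (0.94), an inhibitor of mTOR signalling, and Rora (0.88), a nuclear receptor, are named after their values were seen. The cytokine gene Mif (-0.09) and the mitophagy receptor gene Bnip3l (-0.21) did not pass.

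**Figure D4:**
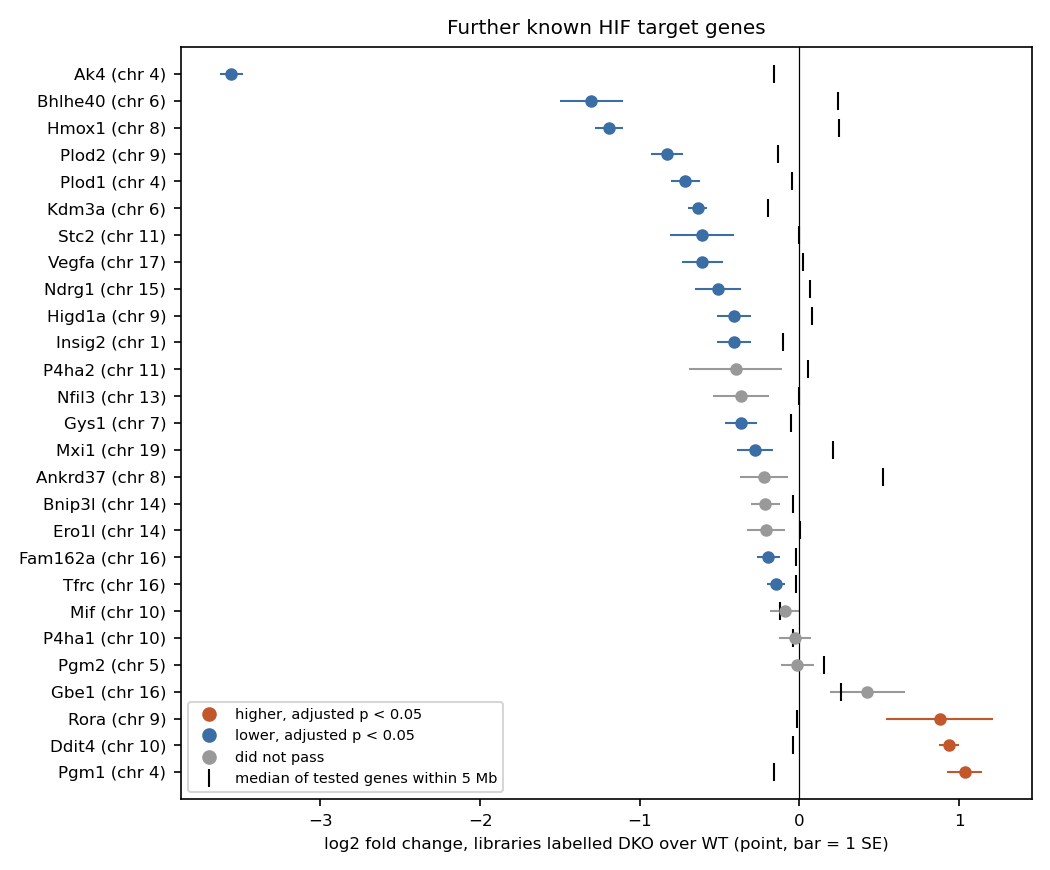
Log2 fold change of the 27 tested genes of the HIF target list, libraries labelled DKO over WT, sorted from lowest to highest, with bars of 1 SE and the chromosome in brackets. Blue and orange points passed downward and upward, grey points did not pass, and black ticks mark the median of the tested genes within 5 Mb. Ak4 lies at -3.56, and only Rora, Ddit4 and Pgm1 passed on the right.

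Among 12 further regulators of HIF that were tested, 4 rose and 2 fell, a share close to the 47.8% of all genes that passed. Epas1, which encodes HIF-2 alpha, fell from 25.2 ± 5.83 to 10.2 ± 2.28 CPM (log2 fold change -1.31 ± 0.16, adjusted p = 8.3e-08 by edgeR). Cited2, which competes with HIF for the coactivator p300, rose from 18.7 ± 1.68 to 34.5 ± 1.35 CPM (log2 fold change 0.88 ± 0.10, adjusted p = 1.9e-09 by edgeR), and Ep300, which encodes p300, rose by 0.29. Rbx1, part of the ubiquitin ligase that removes HIF, passed narrowly (0.14, adjusted p = 0.0495 by edgeR) and was lost in 13 of 17 alternative fits. The ligase scaffold Cul2 (0.15) and the hydroxylase Egln2 (0.03) did not pass.

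Of 12 further genes of lactate and pyruvate handling that were tested, 2 rose and 3 fell, or 41.7% beside the 47.8% of all genes. Slc16a6 belongs to the same gene family as MCT1 and MCT4 but is not among the proton-coupled lactate carriers described above. It rose from 34.7 ± 2.80 to 79.9 ± 10.9 CPM (log2 fold change 1.20 ± 0.09, adjusted p = 6.2e-13 by edgeR). Pdp2, a phosphatase that reactivates pyruvate dehydrogenase (-1.21), and Pdpr, a regulatory subunit for such a phosphatase (-0.86), fell, and both lie on chromosome 8 with neighbourhood medians of -0.61 and -0.67. Mpc2, a subunit of the mitochondrial pyruvate carrier, passed at 0.25 but was lost in 12 of 17 alternative fits. Bsg, the chaperone that takes MCT1 and MCT4 to the cell surface, stood at 374 ± 12.5 and 373 ± 22.8 CPM, and Pdhb, the partner subunit of Pdha1, at 0.11 on the log2 scale, and neither passed.

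The remaining lists did not share one direction. Of 8 tested genes among other glycolytic enzymes and glucose transporters 0 passed in edgeR's quasi-likelihood test and 0 in DESeq2, with 2 genes at an unadjusted p under 0.05 in edgeR (Minpp1 and Pgam5, named after their values were seen) and 1 in DESeq2. Tigar, a phosphatase that lowers fructose 2,6-bisphosphate, stood at 305 ± 8.15 and 318 ± 16.1 CPM, and the mitochondrial phosphatase gene Pgam5 at a log2 fold change of 0.15, which passed in 2 of 17 alternative fits (adjusted p from 0.0263 to 0.418). Of 11 further pentose phosphate and NADPH genes, 4 rose and 4 fell, or 72.7% beside the 47.8% of all genes. H6pd, the form of the first enzyme found in the endoplasmic reticulum, fell by 1.47 on the log2 scale, the NADPH-forming malic enzyme gene Me1 by 1.28 and isocitrate dehydrogenase gene Idh1 by 0.42, whereas Prps2, which makes the ribose donor for nucleotides, rose by 1.43. Taldo1 (-0.02) and Tkt (-0.17), enzymes of the non-oxidative branch, did not pass, though Tkt passed in 4 of 17 alternative fits (adjusted p from 0.00938 to 0.279). In the serine branch, 2 of 6 genes rose and 2 fell, or 66.7%. The mitochondrial folate enzyme genes Mthfd2 (-0.85) and Shmt2 (-0.47) fell, the cytosolic Shmt1 (0.22) and the aminotransferase gene Psat1 (0.16) rose, and Psph (-0.05) and Phgdh (-0.09) did not pass.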

How the data were processed

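The authors deposited 1 table of whole-number exon read counts per Ensembl gene, not normalized, for all 9 libraries. Per the labels' protocols, 600 ng of Trizol-extracted RNA went into the forward QuantSeq 3' kit of Lexogen. The submitters' processing notes name mm10 as the build and DESeq2, STAR, cutadapt and featureCounts as tools. The sources used here do not give their versions, the strand setting or the treatment of duplicates and of reads with several origins. Overlapping and antisense genes may therefore share reads.

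Identifiers were matched to GENCODE mouse release 21 (52403 of 52550; 147 did not match), and 0 columns were left out. Genes kept by filterByExpr were scaled by TMM and tested on all 9 libraries with the robust quasi-likelihood test of edgeR 4.0.16 in R 4.3.3, which was checked on simulated counts. P-values were adjusted by Benjamini-Hochberg over 11893 genes, with a threshold of 0.05. Values are mean ± SD of CPM (n = 4 WT, 5 DKO), and the SE of a log2 fold change was taken from it and its F statistic. Shares were compared by exact 2-sided permutation. The neighbourhood median covers tested genes within 5 Mb, members left out. Copies were sought with blastn among GENCODE transcripts, at 95% identity over at least 100 bases. The 16 pairs of libraries within groups differed by a chi-square per degree of freedom of 2.22 to 4.98, so no library looked deposited in duplicate. The floor of 3 counts covers counting error alone, as the labels mention no molecular identifiers.

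The members and all lists were chosen with earlier results of these data known. Values in every library are given for members that passed with an absolute log2 fold change of at least 0.5 and for their isoenzymes. From each further list, up to 4 passing genes with the largest change among those reaching 10 CPM and up to 2 of the highest that did not pass are named. Alternatives were other scalings (RLE, upper quartile, TMM without chromosomes 6, 8, Y and MT), other filters, DESeq2 1.42.0, the replicate number as a block and each library left out. A fit without DKO 4 and DKO 5 was added after the data were seen.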

Additional observations from a re-analysis of the deposited data

Results flagged for a closer look

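Single libraries stood apart from the others of their group in 12 of 156 sets of values tested, at a rate of about 1 in 20 expected by chance. DKO 3 was the lone library in 4 of the 12. It held 122 CPM of Ldhb against 174 to 181 in the other 4 libraries labelled DKO, 21.2 CPM of Eno3 against 13.9 to 14.3, and 422 CPM of Shmt1 against 361 to 373, and its Eno1 share was 71.4% against 82.1% to 85.2%. DKO 4 stood alone for Pfkp (66.8 CPM against 57.1 to 59.7) and Idh1 (91.0 CPM against 105 to 110.5), and DKO 1 for Pfkl (31.3 CPM against 28.2 to 29.0). Among WT libraries, WT 2 stood low for Gpi1 (202.9 CPM against 227.7 to 230.1) and Ep300 (94.2 CPM against 103.4 to 105.2), WT 3 low for Egln1 (66.4 CPM against 76.8 to 79.0), and WT 4 low for Hmox1 (56.4 CPM against 64.5 to 65.2) and high for Taldo1 (332 CPM against 312 to 315).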

How the results depend on the processing

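The counts of members called stayed within 4 to 7 up and 14 to 16 down over 17 alternatives, and those of the HIF target list within 2 to 3 up and 13 to 16 down. Over all genes the counts ran from 2449 to 2918 up and from 2475 to 3157 down. The scalings moved the median of all genes by less than 0.01 on the log2 scale. Same-numbered libraries correlated weakly (0.0862, -0.000237, 0.0883 and 0.0390). DKO 1, DKO 3 and DKO 4 each correlated best with the WT library of their number, and DKO 2 did not. Whether replicate numbers pair the libraries cannot be told from these values. With the replicate block, 4 members rose and 16 fell, out of 2699 and 2798 genes. Under it Tpi1, Mpc2 and Rbx1 did not pass (adjusted p = 0.0842, 0.114 and 0.108), and Pgam5 and Tkt passed (0.0351 and 0.0309). Gapdh turned to -0.24 under the block, to -0.24 without DKO 5 and to -0.14 without DKO 4 and DKO 5. With single libraries left out, log2 fold changes of genes that never passed crossed 0, in Gapdh (-0.241 to 0.283), Hif1a (-0.0714 to 0.0088), Pfkm (-0.1136 to 0.0264), Pfkfb4 (-0.0567 to 0.204), Eno1 (-0.064 to 0.104), Eno2 (-0.346 to 0.0131), Bsg (-0.0363 to 0.021), Psph (-0.108 to 0.0253) and Phgdh (-0.1892 to 0.0166). Tpi1 also missed the threshold in DESeq2 (adjusted p = 0.0614; 0.00607 to 0.30 over all alternatives), and in 7 fits with libraries left out. Psat1 was lost without WT 1, WT 3 or DKO 5 and without DKO 4 and DKO 5 together (adjusted p 0.00165 to 0.16 over all alternatives). Aldoc passed without WT 2, DKO 4, or DKO 4 and DKO 5 (lowest adjusted p = 0.0181), Bnip3 without WT 2, WT 3, DKO 1 or DKO 4 (0.0232) and Gpi1 without DKO 1 (0.0106). Of other genes that did not pass, Bnip3l passed in 6 alternatives, 3 of them without WT 3, DKO 1 or DKO 2 (lowest adjusted p = 0.0432), Tkt in 4, with no filter, under the block and without WT 2 or DKO 3 (0.00938), Cul2 without WT 4, DKO 1 or DKO 3 (0.0254), Pgam5 under the block and without WT 1 (0.0263), and Pdhb without DKO 4 (0.0372). Among shares with 1 library left out, the difference of Ldha ran from -41.6 to -39.3 points, Slc16a1 from 18.2 to 20.6, Slc2a1 from -7.14 to -6.56, Pfkm from 4.09 to 4.62 and Aldoa from -1.44 to -1.05. The first 4 had an adjusted p of 0.0571 without DKO 2, DKO 4 or DKO 5 and passed in the other 6 cases. Aldoa passed without DKO 1 or DKO 3 and missed the threshold in the other 7 (adjusted p 0.0571 to 0.0714). These exact p-values lie at or near the smallest the splits allow and say little of stability. Pdk1 ran from -7.73 to -4.71 and passed without DKO 1, and Eno1 from 2.54 to 7.66 and passed without DKO 3 (adjusted p = 0.0476 for both). For Gapdh, Eno2, Pdk2 and Pfkfb4, a few CPM each, only large differences could have been detected at this depth. Pgam1 was too low to test, and Gapdh also has the copies described above.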
